A study of Mus musculus with 6 samples.

Results

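The endothelial and homing vessel genes described here are Glycam1, Madcam1, Pecam1, Cdh5, Kdr, Tek, Vwf, Plvap, Lyve1 and Selp. They were chosen by name, by taking every probe set whose platform annotation gave exactly 1 gene symbol and that symbol was among these 10. All 10 genes were found, on 14 of the 45101 probe sets of the array. Whole thymus of adult F1 females was profiled on 6 Affymetrix arrays. Of these, 3 came from the outcross (AKR/J x FVB/NJ)F1, called the AKR cross, and 3 from the outcross (DBA/2J x FVB/NJ)F1, called the DBA cross. Both crosses carry the FVB/NJ genome from 1 parent and differ in the other parent, and the labels name no treatment of either beyond the Avertin anaesthesia at death. The comparison asks how basal thymus expression differs between these genotypes. The labels give no exact age, no transgene, and no word on whether each array had its own animal. The p-values thus measure only how these samples scatter, and that scatter may be technical.

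Endothelial cells line blood and lymphatic vessels, hold together through junction proteins such as VE-cadherin and CD31, and respond to vascular endothelial growth factors and angiopoietins through receptor tyrosine kinases. Lymphocytes leave the blood where selectins and mucin-like or immunoglobulin-like ligands slow and arrest them, as in the high endothelial venules of lymph nodes. In the thymus, progenitors enter from the blood and mature T cells leave through vessels near the border of cortex and medulla. In whole-tissue RNA such as this, fewer cells of a type and less RNA per cell cannot be told apart.

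The results turn on Glycam1, so the 250 bases before its start are shown, beside those of Madcam1, the other ligand of homing vessels among the members. Both are from RefSeq on build GRCm38.p6, each 5′ to 3′ on the strand of the gene, at chr15:103565082-103565331 on the minus strand for Glycam1 and chr10:79664309-79664558 on the plus strand for Madcam1. Capitals mark matches to the NF-kB type motif GGGNNNNNCC, searched on both strands.
Glycam1: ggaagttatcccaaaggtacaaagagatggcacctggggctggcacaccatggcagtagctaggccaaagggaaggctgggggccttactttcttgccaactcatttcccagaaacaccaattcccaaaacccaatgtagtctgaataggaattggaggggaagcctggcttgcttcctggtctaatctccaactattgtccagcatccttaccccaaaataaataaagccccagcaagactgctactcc
Madcam1: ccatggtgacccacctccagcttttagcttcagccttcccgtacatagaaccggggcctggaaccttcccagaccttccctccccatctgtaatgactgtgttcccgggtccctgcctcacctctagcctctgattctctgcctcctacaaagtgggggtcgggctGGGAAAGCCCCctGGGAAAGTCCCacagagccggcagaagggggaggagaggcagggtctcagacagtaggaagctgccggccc
The Madcam1 window held 4 overlapping matches in 2 stretches, between 84 and 61 bases before the start, and the Glycam1 window held 0. Of 32851 promoter windows of this length in the RefSeq table, 45.8% held at least 1 match, so a match in these letters is common. Promoter sequence was found for 5 of the 10 members.

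Values are on a log2 scale, so a difference of 1 is a doubling, and every difference below is AKR cross minus DBA cross. Array medians ran from 5.92 to 5.95, and the 40th percentile from 5.21 to 5.28. Tests covered the probe sets that exceeded this percentile on 3 or more of the 6 arrays, and the brightest such probe set stood for its gene. Below, called means an adjusted p under 0.05 in limma, with Benjamini-Hochberg adjustment over the 12855 genes tested. The tissue label was checked on thymocyte genes, of which all 10 measured were tested, with mean levels by array from 11.62 to 11.79.

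The vessel genes differed little between the crosses, except for Glycam1, which was high on 4 arrays and low on 2. Of the 10 members, 8 passed the filter on dim probe sets, and 0 of the 8 were called, where 24% of all genes tested were called. At an unadjusted p under 0.05 limma gave 1 of the 8, Glycam1, where 37.9% of all genes tested had such a p. This p of 0.0492 (limma) rests on a variance shared between genes. Among members below the filter, Tek and Lyve1 probe set 1429379_at also had such a p in the fit without it (0.0421 and 0.0437, limma). Over all genes tested, calls with the AKR cross on top made up 12.5% and the opposite calls 11.5%, and the counts of each gene list below stand beside these shares. For the 7 tested members other than Glycam1, the differences ran from -0.21 to 0.10, or between 1.03-fold and 1.16-fold in either direction. Among the 95% intervals of these 7, that of Vwf reached farthest from 0, to 0.46 in size, which is 1.37-fold, so a difference of 1.5-fold lay outside the interval of all 7. The median difference of the 8 tested members was -0.01, beside 0.03 over all genes. The groups did not overlap for 1 of the 8, Selp, against 43.9% of all genes tested. Probe set by probe set, 0 of the 8 tested member probe sets were called, where 27.2% of all tested probe sets were.

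**Figure D1:**
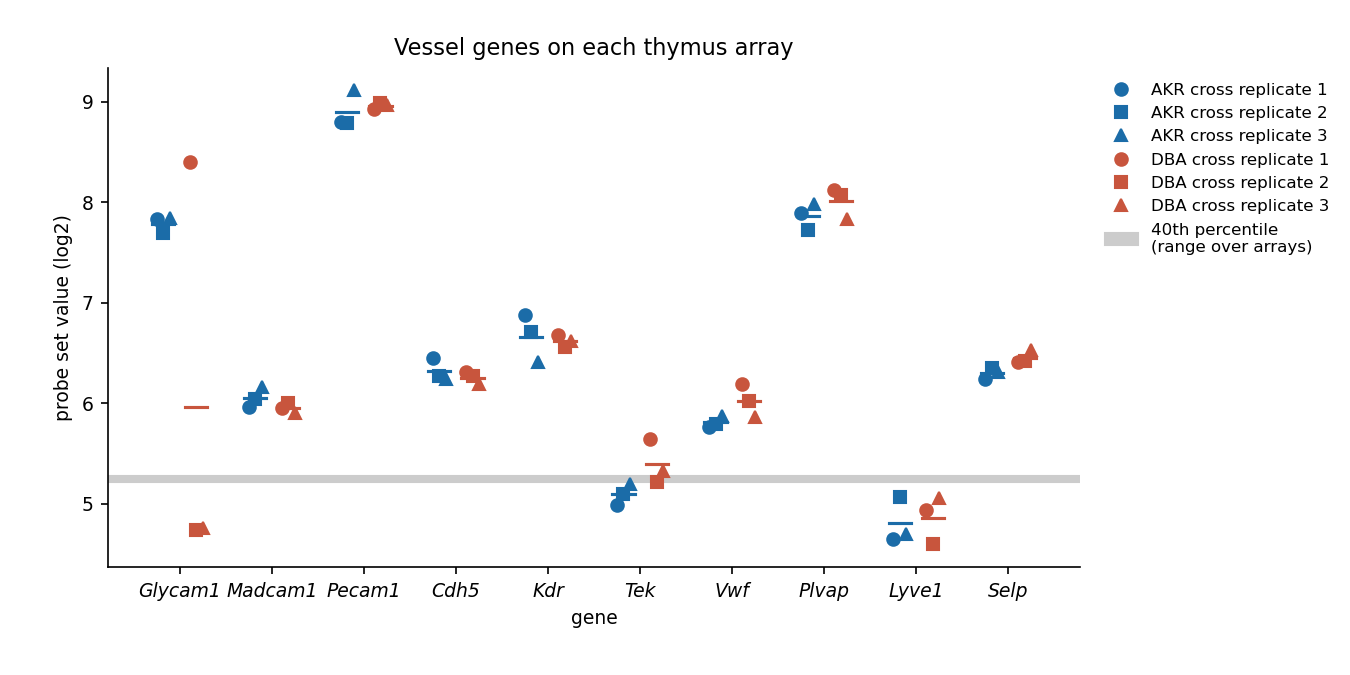
Probe set value (log2, vertical axis) of each of the 10 vessel genes on each array, with AKR arrays in blue, DBA arrays in red, the replicate number as the marker shape and short lines at the group means. Glycam1 was between 7.69 and 8.40 on 4 arrays and at 4.74 and 4.76 on DBA replicates 2 and 3, and Tek and Lyve1 lay at or under the grey band of the 40th percentile on most arrays.

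Glycam1 encodes a secreted mucin that carries sulfated sugars bound by L-selectin on lymphocytes, and it is known from high endothelial venules and from the lactating mammary gland. On its probe set, 1424825_a_at, it stood at 7.83, 7.69 and 7.84 on AKR replicates 1, 2 and 3, and at 8.40, 4.74 and 4.76 on DBA replicates 1, 2 and 3. The AKR arrays lay close together, while the DBA cross held both the highest and the lowest value of all 6 arrays, so the groups overlapped. The group means were 7.79 ± 0.08 and 5.96 ± 2.11 (SD, n = 3 each), a difference of 1.82 ± 0.81 (SE, 95% interval from 0.01 to 3.64) that was not called (adjusted p = 0.131, limma). Limma draws the variance of each gene toward that of other genes. This SE and interval are thus narrower than the scatter of Glycam1 alone would give. Glycam1 passed the filter through the 3 AKR arrays and DBA replicate 1, and DBA replicates 2 and 3 lay below the 40th percentile of their arrays. Without DBA replicate 1 the difference was 3.04, and it was called (adjusted p = 3.88e-06, limma). In that fit Glycam1 passed the filter only through the AKR arrays, where it was high, so this value shows how far 1 array sets the result and is no test of the crosses.

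The split of Glycam1 within the DBA cross was among the widest on the array. The range over the 3 DBA arrays was 3.66, which ranked 11 of 12855 genes, where the median range was 0.19. Over the 3 AKR arrays the range of Glycam1 was 0.14, against a median of 0.18 over all genes. DBA replicates 2 and 3 differed by 0.02, and DBA replicate 1 was 12.6-fold above DBA replicate 2. The mean of the AKR arrays was 8.22-fold above the mean of DBA replicates 2 and 3, while DBA replicate 1 was 1.53-fold above the mean of the AKR arrays. Since DBA replicates 2 and 3 were dim, where summarised array values compress differences, these folds are not exact.

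DBA replicate 1 also stood apart in genes of other tissues, which was seen after the values were examined. DBA replicate 1 exceeded both other DBA arrays by at least 1 in 43 genes, and lay below both by at least 1 in 7. By the gap above both, Glycam1 ranked 4, at 3.64. The genes ranked 1, 2 and 3 were Myh1, Mb and Tnnt3, which encode a fast myosin heavy chain, myoglobin and a fast troponin T of skeletal muscle. The mean level of 11 skeletal muscle genes, a list drawn up after these values were seen, was 9.99 on DBA replicate 1 against 5.91 and 6.83 on DBA replicates 2 and 3, and 11 of the 11 were highest on DBA replicate 1. On the AKR arrays the muscle list stood at 7.17, 7.41 and 5.68. AKR replicate 3 thus had the lowest muscle level of the 6 arrays and a Glycam1 value of 7.84.

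Fat cell genes showed a like order by array. Their mean level, over 7 genes, was 9.68 on DBA replicate 1 and 8.80 and 8.73 on DBA replicates 2 and 3, with all 7 genes highest among the DBA arrays on replicate 1. On the AKR arrays the fat level was 9.07, 9.34 and 8.12. By limma 0 of the 7 fat genes were called, with 1 at an unadjusted p under 0.05 (24% and 37.9% of all genes), and Fabp4, a fatty acid binding protein gene also active in capillary endothelium, differed by -0.47 ± 0.27 (SE) and Lpl, lipoprotein lipase, by -0.40 ± 0.35. These values are of the brightest probe sets. The other tested probe sets of Fabp4 differed by -0.08, -0.85 and -0.51, with 1 of them called higher in the DBA cross. The other tested probe set of Lpl had the opposite sign, at 0.47, and was not called. The part of muscle or fat tissue in the Glycam1 values was not tested.

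Lymph node and mammary genes were set beside Glycam1 because both tissues are known to express it. The mean level of 9 B cell and lymph node genes was 7.36, 7.35 and 7.44 in the AKR cross, against 6.95, 6.96 and 7.00 in the DBA cross. The B cell level on DBA replicate 1, where Glycam1 was highest, was close to that of the other DBA arrays. Of these 9 genes, 5 were called, all higher in the AKR cross, led by Cr2, complement receptor 2 (0.93 ± 0.11, SE), and Cd79a, a chain of the B cell receptor complex (0.74 ± 0.10). The mean level of 7 milk and mammary genes ran from 6.41 to 6.57 on the AKR arrays and from 6.63 to 6.73 on the DBA arrays, with 2 genes called, Csn2 and Ltf, both higher in the DBA cross. Wap and Lao1 differed the other way, by 0.19 and 0.21, and were not called. The list held 12 genes, of which 5 did not pass the filter. Among these 5, the casein genes Csn1s1, Csn1s2a and Csn3 lay below the 40th percentile on all 6 arrays. Csn2, the beta-casein gene, was at 7.86, 7.88 and 7.84 in the AKR cross, against 8.77, 8.76 and 8.62 in the DBA cross, without the split of Glycam1. Ltf, the lactoferrin gene, also made by neutrophils, differed by -0.45 ± 0.14 (adjusted p = 0.0428, limma) and kept the call on the omission of 1 array only for AKR replicate 3 (otherwise adjusted p from 0.0674 to 0.120, limma). The part of lymph node or mammary tissue was not tested.

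**Figure D2:**
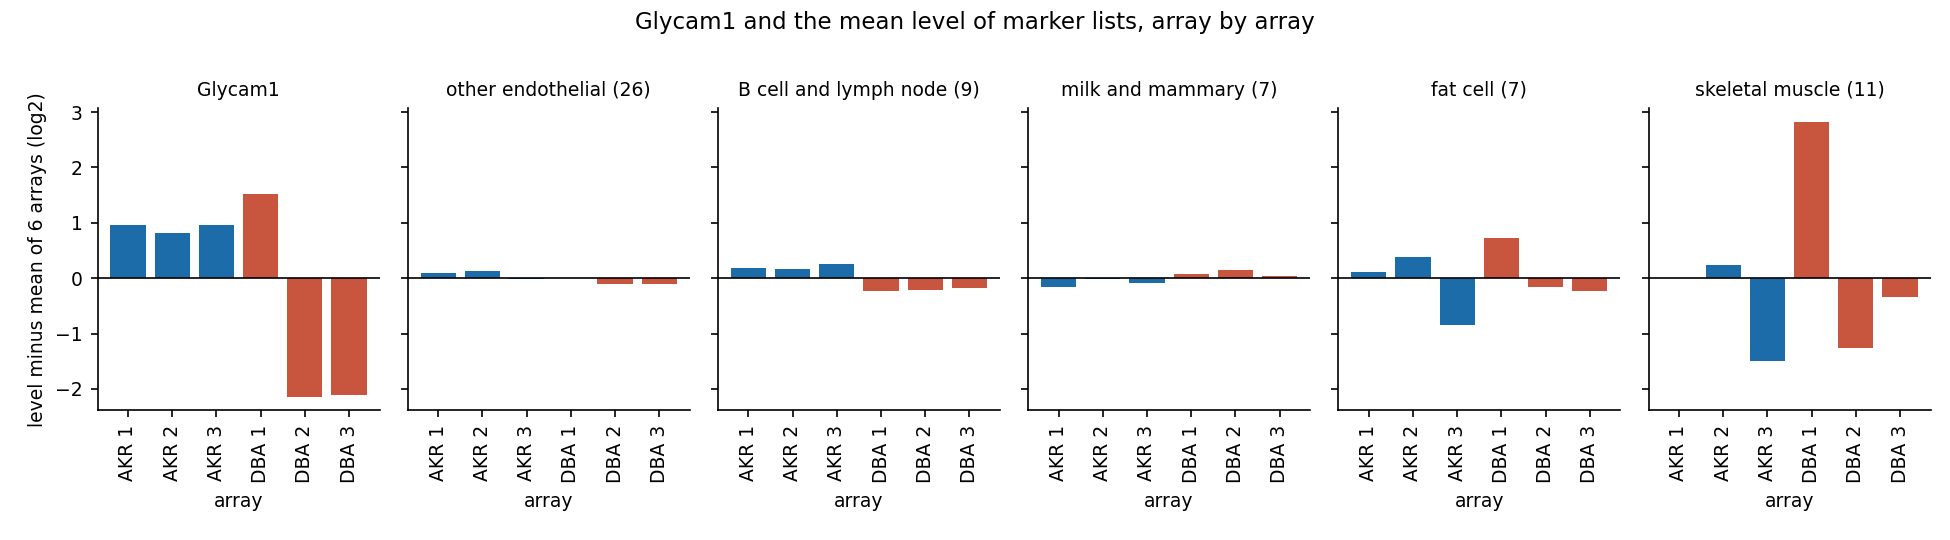
Level of Glycam1 and mean level of 5 marker lists on each array, as the log2 difference from the mean of the 6 arrays (vertical axis), with AKR arrays in blue and DBA arrays in red. The skeletal muscle list was drawn up after the values were seen. Glycam1, muscle and fat were highest on DBA replicate 1, and on AKR replicate 3 muscle and fat were lowest while Glycam1 was at 7.84.

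The genes whose pattern over the 6 arrays was most like that of Glycam1 were Hspb6, with Pearson r = 0.93, and Aplnr, with r = 0.92, among 518 genes whose values ranged over at least 1. Aplnr encodes the apelin receptor of endothelial cells, and stood at 7.16, 7.16 and 6.96 in the AKR cross, against 7.37, 6.12 and 6.61 in the DBA cross. Hspb6 encodes a small heat shock protein of muscle, and stood at 6.79, 6.86 and 6.69 in the AKR cross, against 7.25, 6.01 and 6.26 in the DBA cross. Neither was called (adjusted p = 0.290 for Aplnr and 0.483 for Hspb6, limma). Both were highest on DBA replicate 1 and lowest on DBA replicate 2, over a smaller range than Glycam1. The next in order were Srm, Tmem97, Actn2, Timd4, Tnnt1 and Coq8a, with r from 0.90 to 0.84, and these values over 6 arrays are a description.

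The other homing genes of vessels among the members, Madcam1 and Selp, did not follow Glycam1. Madcam1 encodes the addressin that binds the integrin of alpha-4 and beta-7 chains on lymphocytes. On probe set 1425253_a_at it was at 5.97, 6.04 and 6.16 in the AKR cross, against 5.96, 6.01 and 5.91 in the DBA cross. These values overlapped, and the difference of 0.10 ± 0.10 (SE, 95% interval from -0.12 to 0.32) was not called (adjusted p = 0.483, limma). DBA replicate 1, the array with the highest Glycam1, was in the middle of the DBA arrays for Madcam1.

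Selp encodes P-selectin, which endothelial cells and platelets store and move to their surface, and which takes part in the entry of progenitors into the thymus. On its brightest probe set, 1420558_at, it was at 6.24, 6.36 and 6.31 in the AKR cross, against 6.41, 6.42 and 6.53 in the DBA cross. All 3 DBA arrays were above all 3 AKR arrays by a small margin, and the difference of -0.15 ± 0.09 (SE, 95% interval from -0.36 to 0.06) was not called (adjusted p = 0.258, limma). The other Selp probe sets, 1449906_at and 1440173_x_at, lay below the 40th percentile on all 6 arrays and differed by -0.05 and -0.09. Their groups overlapped.

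Pecam1 and Cdh5 encode CD31 and VE-cadherin, adhesion proteins at the contacts between endothelial cells. Pecam1, which leukocytes and platelets also make, was at 8.80, 8.79 and 9.11 in the AKR cross, against 8.92, 8.98 and 8.97 in the DBA cross (probe set 1421287_a_at). The DBA values lay within the AKR range, and the difference was -0.06 ± 0.10 (SE, 95% interval from -0.28 to 0.16, adjusted p = 0.686, limma). Cdh5, the more restricted endothelial marker, was at 6.45, 6.27 and 6.24 in the AKR cross, against 6.31, 6.27 and 6.19 in the DBA cross (probe set 1433956_at). Its difference was 0.07 ± 0.10 (SE, 95% interval from -0.16 to 0.29, adjusted p = 0.649, limma), and the values overlapped. A second Cdh5 probe set, 1422047_at, lay below the 40th percentile on all 6 arrays and differed by 0.17.

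The genes most like Cdh5 over the 6 arrays, among 3941 genes whose values ranged over at least 0.5, were Rab5if, Tmppe, Med22, Atf4 and Cib1, with Pearson r from 0.99 to 0.98. None of these is in the endothelial lists. Cdh5 itself ranged over 0.26 across the arrays.

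Plvap encodes the protein of the diaphragms that span pores and caveolae of fenestrated endothelium. It was at 7.89, 7.72 and 7.98 in the AKR cross, against 8.12, 8.08 and 7.83 in the DBA cross (probe set 1418090_at). The values overlapped, with a difference of -0.15 ± 0.11 (SE, 95% interval from -0.39 to 0.10, adjusted p = 0.353, limma). Vwf encodes von Willebrand factor, a clotting protein of endothelial cells and platelets. It was at 5.76, 5.79 and 5.88 in the AKR cross, against 6.19, 6.02 and 5.86 in the DBA cross (probe set 1435386_at). DBA replicate 1 was the highest and DBA replicate 3 lay among the AKR values, and the difference of -0.21 ± 0.11 (SE, 95% interval from -0.46 to 0.03) was not called (adjusted p = 0.189, limma).

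Vwf, Selp and Pecam1 are also platelet genes, so platelet and megakaryocyte genes were read beside them. Of 7 such genes tested with limma, 0 were called and 0 had an unadjusted p under 0.05 (24% and 37.9% of all genes), and their mean level ran from 6.22 to 6.43 on the AKR arrays and from 6.17 to 6.27 on the DBA arrays. Pf4, platelet factor 4, differed by -0.01 ± 0.14 (SE) and Itga2b, the platelet integrin alpha-IIb gene, by 0.20 ± 0.09, and neither passed (adjusted p = 0.961 and 0.156, limma).

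Kdr and Tek are the receptor tyrosine kinases among the members. Kdr encodes vascular endothelial growth factor receptor 2, the main signalling receptor of VEGF-A. It was at 6.87, 6.71 and 6.41 in the AKR cross, against 6.68, 6.56 and 6.62 in the DBA cross (probe set 1449379_at). The DBA arrays lay inside the AKR range, and the difference was 0.04 ± 0.13 (SE, 95% interval from -0.24 to 0.33, adjusted p = 0.825, limma). Without AKR replicate 1 the sign turned, at -0.06.

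Tek encodes TIE2, the receptor of the angiopoietins, and was too dim to be tested under the filter, since only DBA replicates 1 and 3 lay above the 40th percentile (probe set 1418788_at). It was at 4.99, 5.10 and 5.20 in the AKR cross, against 5.65, 5.22 and 5.33 in the DBA cross. All DBA values were above all AKR values, by 0.02 at the closest. In the fit without the filter the difference was -0.30 ± 0.13 (SE) and was not called (adjusted p = 0.145, limma). Over all 45037 probe sets other than controls, the groups did not overlap for 35.5%, and over the 14 member probe sets for 2, those of Tek and Selp.

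Growth ligand genes of vessels were read beside these receptors. Of 8 growth ligand genes tested, 2 were called higher in the AKR cross (12.5% of all genes were) and 1 higher in the DBA cross (11.5% of all genes were), with a median difference of 0.02. Angpt1, the angiopoietin that activates TIE2, was at 6.33, 6.31 and 6.65 in the AKR cross, against 6.76, 6.88 and 6.76 in the DBA cross, 1.29-fold above the AKR mean (-0.37 ± 0.11, SE, adjusted p = 0.0449, limma). The call for Angpt1 is close to the threshold and was lost in 9 of 17 other settings, among them the omission of any 1 array but AKR replicate 3 (adjusted p from 0.0730 to 0.137, limma). Vegfb, a ligand of the related receptor VEGFR1, was 1.29-fold higher in the AKR cross (0.37 ± 0.10, adjusted p = 0.0296, limma), and lost the call in 6 of 17 settings, 5 of them the omission of 1 array other than DBA replicate 1 (adjusted p from 0.0553 to 0.0861, limma). Dll4, a Notch ligand gene of sprouting endothelium and thymic epithelium, was the second gene called higher in the AKR cross (0.36 ± 0.11, adjusted p = 0.0484, limma), and kept the call on the omission of 1 array only for AKR replicate 3 (otherwise adjusted p from 0.0507 to 0.142, limma). Vegfa, the ligand of Kdr, did not pass (-0.13 ± 0.16).

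**Figure D3:**
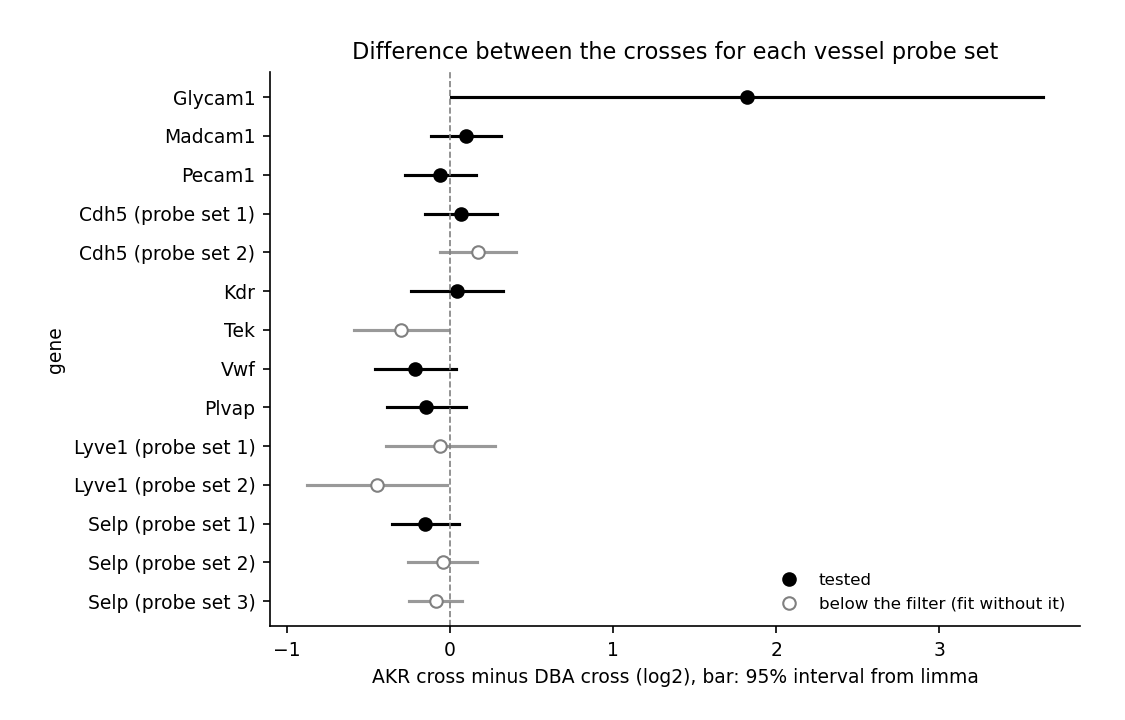
Difference AKR cross minus DBA cross (log2, horizontal axis) of each of the 14 member probe sets, with 95% intervals from limma. Filled points were tested, and open points lay below the filter and are from the fit without it. The interval of Glycam1 runs from 0.01 to 3.64, and those of the other tested probe sets reach at most 0.46 in size.

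Lyve1 encodes a hyaluronan receptor of lymphatic endothelium that some tissue macrophages also carry. Neither of its probe sets passed the filter, with 0 of 6 arrays above the 40th percentile for 1453128_at and only DBA replicate 3 for 1429379_at. On the first, the values were 4.65, 5.06 and 4.70 in the AKR cross, against 4.94, 4.60 and 5.06 in the DBA cross, and the groups overlapped. On the second, the values were 4.27, 4.71 and 4.42 in the AKR cross, against 4.92, 4.49 and 5.33 in the DBA cross, and the groups overlapped again. In the fit without the filter they differed by -0.06 ± 0.15 and -0.45 ± 0.19 (SE), and neither was called (adjusted p = 0.830 and 0.148, limma). At this signal a difference in Lyve1 was not measurable with confidence.

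Other lymphatic genes give little more to hold Lyve1 against. Prox1, the transcription factor gene that sets lymphatic identity, was below the 40th percentile on all 6 arrays, at 3.25 or less. Of 7 lymphatic list genes tested, 3 were called, 1 of them higher in the AKR cross and 2 lower (12.5% and 11.5% of all genes), with a median of 0.13. The higher one was Thy1, an abundant thymocyte gene (0.37 ± 0.05). Stab2, a scavenger receptor gene of sinusoidal and lymphatic endothelium, was at 6.40, 6.19 and 6.40 in the AKR cross, against 8.79, 8.62 and 8.92 in the DBA cross, and its adjusted p was 4.09e-06 (limma). The third was Pdpn, podoplanin (-0.29 ± 0.09, adjusted p = 0.0400, limma), also made by thymic epithelium, whose call was lost in 9 of 17 settings, among them each omission of 1 array (adjusted p from 0.0507 to 0.120, limma).

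Other endothelial genes came from a list of 30, of which 26 were tested. Of these, 3 were called, all higher in the AKR cross, a share of 11.5% beside 24% of all genes, and their median difference was 0.17 beside 0.03 over all genes. Cd93, a C-type lectin-like receptor gene of endothelial and myeloid cells, was at 7.51, 7.53 and 7.58 in the AKR cross, against 7.00, 6.71 and 6.72 in the DBA cross. It was 1.66-fold higher in the AKR cross (0.73 ± 0.10, SE, adjusted p = 0.00185, limma) and was called in all 17 other settings, while its other tested probe set, at a difference of 0.28, did not pass. Rasip1, a regulator of vessel lumen formation, was at 5.37, 5.37 and 5.25 in the AKR cross, against 4.85, 5.13 and 4.87 in the DBA cross. It passed the filter only through the AKR arrays, where it was higher, with all 3 DBA arrays below the 40th percentile, so its place among the 3 called genes supports nothing. Erg, an endothelial transcription factor gene, differed by 0.33 ± 0.10 (adjusted p = 0.0420, limma). Erg was not called without any 1 of the 6 arrays (adjusted p from 0.0579 to 0.128, limma), nor Rasip1 without any 1 but DBA replicate 2 (0.0552 to 0.104). The count of 3 rests on the brightest probe sets. Egfl7 and Mmrn2 were not called on theirs (0.25 and 0.07). Of their other tested probe sets, 2 of Egfl7 (0.40 and 0.37, the other at -0.04) and 1 of Mmrn2 (0.49, the other at -0.20) were called higher in the AKR cross.

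The mean level of these 26 genes was 6.80, 6.84 and 6.68 in the AKR cross, against 6.71, 6.60 and 6.59 in the DBA cross. DBA replicate 1 was the highest DBA array for 18 of the 26 genes, and for 5 of the 8 tested members. The same share over all genes was not computed, so these counts are only a description. Tie1 and Emcn, endothelial genes encoding an orphan receptor related to TIE2 and a sialomucin, were below the 40th percentile on all 6 arrays, as Lyve1 was on 1 of its probe sets. Of the 7 arterial and venous genes tested, 1 was called, Jag1, a Notch ligand gene also known from thymic epithelium (-0.48 ± 0.09, adjusted p = 0.00491, limma). Of 11 pericyte and smooth muscle genes, 1 was called, Abcc9, a potassium channel subunit gene of pericytes (-0.40 ± 0.10, adjusted p = 0.0198, limma). Abcc9 was no longer called on omission of AKR replicate 1 (adjusted p = 0.0596, limma), AKR replicate 3 (0.0557) or DBA replicate 1 (0.0531). Its other tested probe set differed by -0.06, and on averaging both the difference was -0.23 and not called (adjusted p = 0.0527, limma). The count for the pericyte and smooth muscle list also rests on the brightest probe sets. Rgs5, of the same list, was not called on its brightest (-0.18 ± 0.07, SE, adjusted p = 0.0779, limma). Its other 3 tested probe sets were all called higher in the DBA cross. The list medians were 0.10 for the arterial and venous genes and -0.16 for the pericyte and smooth muscle genes.

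**Figure D4:**
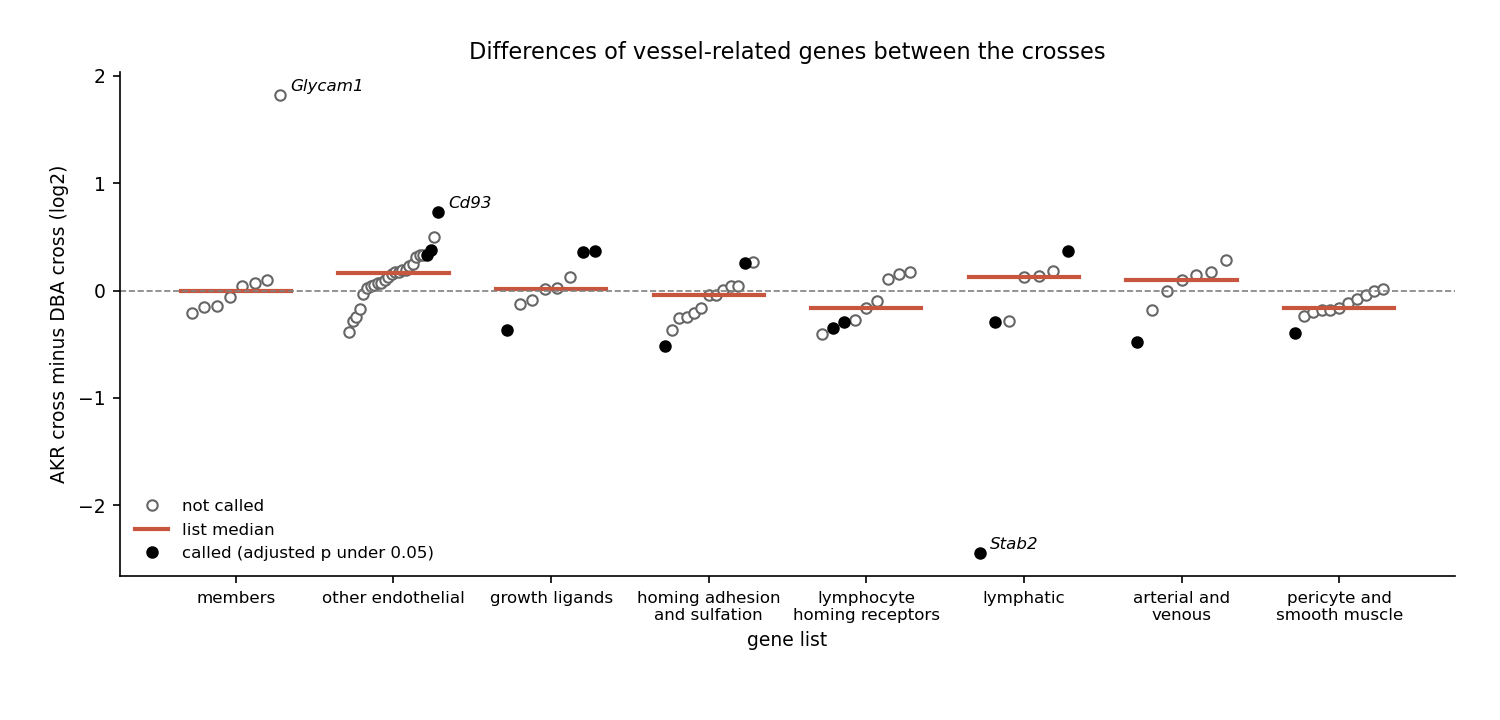
Difference AKR cross minus DBA cross (log2, vertical axis) of each tested gene of the members and of 7 related lists, with called genes filled and red lines at the list medians. Most points lie between -0.5 and 0.5, with Glycam1 and Cd93 above and Stab2 at -2.45 below.

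Genes that act with Glycam1, Madcam1 and Selp in homing were measured in part. Of 13 homing adhesion and sulfation genes tested, 1 was called in each direction, with a median of -0.04. Vcam1, an adhesion ligand of alpha-4 integrins on endothelium and thymic stroma, was at 10.51, 10.56 and 10.70 in the AKR cross, against 10.86, 11.18 and 11.26 in the DBA cross, 1.43-fold higher in the DBA cross (-0.51 ± 0.10, SE, adjusted p = 0.00787, limma). The other 2 tested Vcam1 probe sets were also called higher in the DBA cross. Ltbr, the lymphotoxin beta receptor gene, was the gene called higher in the AKR cross (0.25 ± 0.08, adjusted p = 0.0498, limma), at the threshold, and its call was lost without any 1 of the 6 arrays (adjusted p from 0.0834 to 0.129, limma). Chst4, the sulfotransferase gene that modifies L-selectin ligands in high endothelial venules, and Sele, the E-selectin gene, were below the 40th percentile on all 6 arrays.

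On the lymphocyte side, 9 homing receptor genes were tested, with 0 called higher in the AKR cross, 2 higher in the DBA cross and a median of -0.16. The share called, 22.2%, was near the 24% of all genes. Itgb1, which encodes integrin beta-1, was higher by 1.27-fold in the DBA cross (-0.35 ± 0.06, adjusted p = 0.00521, limma) and was called in all 17 other settings. Itga4, the alpha-4 integrin gene whose protein pairs with beta-1 or beta-7, differed by -0.30 ± 0.09 (adjusted p = 0.0482, limma), a call lost in 11 of 17 settings, among them the omission of any 1 array but AKR replicate 3 (adjusted p from 0.0585 to 0.143, limma). Of 3 other tested Itga4 probe sets, 1 was called, also higher in the DBA cross, and the mean over the 4 differed by -0.51 (adjusted p = 0.00623, limma). All 4 probe sets had the same sign, but this mean was larger in size than the difference of each probe set except 1. The far larger difference of that 1 probe set made up most of the mean, so the mean does not show a like difference across the 4. Itgb7, whose protein completes the Madcam1 receptor, did not pass (0.17 ± 0.09).

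Macrophage genes were read beside Lyve1, Cd93 and Stab2, which macrophages can also express. Of 12 tested, 3 were called higher in each cross (12.5% of all genes for AKR and 11.5% for DBA), with mean levels from 8.45 to 8.51 on the AKR arrays and from 8.51 to 8.55 on the DBA arrays. Mrc1, the mannose receptor gene of tissue macrophages and some sinusoidal endothelium, was higher in the DBA cross (-0.63 ± 0.08, SE), as was Cd163, a haemoglobin scavenger receptor gene (-1.02 ± 0.18), while Timd4, a phosphatidylserine receptor gene, was higher in the AKR cross (0.78 ± 0.15). The part of macrophages in the values of these vessel genes was not tested. Of 2 red cell genes tested, 1 was called higher in the AKR cross, Hba-a2, an alpha-globin gene, which passed the filter only through the 3 AKR arrays, where it was higher. Of 10 thymic epithelial genes, 2 were called higher in each cross, and of 10 thymocyte genes 1 was called, Cd3e, higher in the AKR cross (0.30 ± 0.04).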

How the data were processed

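The deposited table held log2 probe set values of 6 arrays, which the authors had computed. Per the submitters' processing notes MAS5 and RMA were used, without role or version, and the sources used here do not say which of them gave these values. Such summaries compress differences of dim probe sets. Detection calls, array dates and batches were not used here. No further normalization was applied, and the tests left out 64 control probe sets. Gene symbols came from the platform annotation. Of the probe sets, 27385 passed the filter (above the 40th percentile on 3 or more of 6 arrays). The model was fitted with limma 3.58.1 (lmFit, then eBayes with a trend) in R 4.3.3, with two-sided tests and 95% intervals. Figures were drawn with matplotlib 3.10.9.

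The members and gene lists were chosen with earlier results of these data known, and the lists were not tested as sets. By the rule for named genes, all members are given, and from each list the called genes of lowest adjusted p (up to 4), or the brightest (up to 2) where none was called. The text gives only some of these. Vegfa, Prox1, Tie1, Emcn, Chst4, Sele, Itgb7 and the muscle genes fall outside that rule and were picked with their values in view. The same holds for Rgs5, Egfl7, Mmrn2, Wap, Lao1, Csn1s1, Csn1s2a and Csn3. Results were recomputed under 2 other filters, 2 normalizations, a floor, 3 variance models, array weights, a block for the replicate number, averaging over the probe sets of a gene, and each array left out in turn.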

Additional observations from a re-analysis of the deposited data

How the results depend on the processing

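No tested member other than Glycam1 was called in any other setting that kept it (16 or 17 settings). Glycam1 kept its direction in all 17, with differences from 1.21 to 3.04. Every setting kept DBA replicate 2 or 3, or both, where Glycam1 was low, so the kept direction shows little. Glycam1 was called in 2: with the replicate block (adjusted p = 0.0292, limma) and without DBA replicate 1 (3.88e-06), where it passed the filter only through the AKR arrays. The count of members called was thus 1 with the replicate block and from 0 to 1 with 1 array left out. In the block, DBA replicate 1 stood above AKR replicate 1 for Glycam1 (8.40 against 7.83), opposite to the other same-numbered arrays. The block fit also shared variance between genes. Its call does not show a difference held by all same-numbered arrays. The main fit did not treat the sample numbers as pairs, and whether same-numbered arrays share a factor was not tested. The deviations of same-numbered arrays correlated at 0.37, 0.0033 and 0.38, and those of other pairs across the crosses at -0.41 to 0.15. By these values 4 of 6 arrays correlated best with their own number. The block gave 4194 called genes against 3084. Without sharing of variance between genes, 1367 genes and 3544 probe sets were called, against 3084 and 7449. With 1 array left out, called genes ran from 1843 to 2519 and called probe sets from 5161 to 6317. After quantile normalization the AKR cross held the higher value for 62.1% of the genes called, against 52.0%, and with 1 array left out for 45.4% (without AKR replicate 3) to 56.5% (without DBA replicate 1).

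Signs turned with 1 array left out for Kdr (-0.061 to 0.17, below 0 without AKR replicate 1), Pf4 (-0.14 to 0.088), Actn2 (-0.23 to 0.70) and Tnnt1 (-0.14 to 0.40). They also turned for Pf4 after quantile normalization (0.020) and median centring (0.0035), and on averaging over probe sets for Lpl (0.033) and Cib1 (-0.39). The number of arrays limits the precision, and Tek, Lyve1 and the low DBA values of Glycam1 are too near background for exact sizes.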
